A study of Mus musculus with 20 samples.

Results

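H3K4me1, the monomethylation of lysine 4 of histone H3, was compared between neuronal nuclei labelled excitatory and nuclei labelled inhibitory, in the 4 of 20 libraries of the series that were made with this antibody. The members are the 2 libraries labelled excitatory and the 2 labelled inhibitory, chosen by antibody and cell type in the labels, and they are described over 21631 protein-coding genes and the space between them on chromosomes 1 to 19 and X. Whole brains of mice aged 8 weeks gave the nuclei, and both types carry the same genotype, Sun1 f/f with Emx1Cre (+). They were isolated by flow sorting and profiled by CUT&RUN, in which an antibody directs the release of the DNA it is bound to in intact nuclei. The other 16 libraries hold H3K4me3, H3K27ac, H3K27me3 and the transcription factor EGR1 in the same types, 2 libraries each. Emx1 drives Cre in the lineage of the dorsal forebrain, mostly cortical and hippocampal excitatory neurons and glia, and how each type was gated is not given in the labels. No label says that the 2 libraries of a type came from separate animals, so every p-value below measures only the spread between these libraries. A type's nuclei were measured in bulk, so fewer nuclei carrying the mark and less mark per nucleus cannot be told apart. "Excitatory" and "inhibitory" below are the labels of the libraries.

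H3K4me1 is written mainly by the methyltransferases KMT2C and KMT2D. It lies at active and at primed enhancers, on the shoulders of active promoters and in the first part of transcribed genes, while the centre of an active CpG-rich promoter carries H3K4me3 in its place. In the brain it is used to map the enhancers that differ between types of neurons, and it occurs both with H3K27ac, the mark of active enhancers, and, at silent developmental genes, with the Polycomb mark H3K27me3.

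The excitatory libraries held 321846 and 262776 peaks that covered 218 and 257 Mb, and the inhibitory libraries held 209223 and 139982 peaks that covered 188 and 163 Mb. Fold enrichment, p and q of a peak are the authors' values. The lists reach an unadjusted p of 0.0988 to 0.0998, and the share of peaks with a q below 0.05 was 0.00870% and 0.219% in the excitatory against 1.43% and 9.61% in the inhibitory libraries. Of the covered bases of excitatory replicate 1, 49.7% were shared with excitatory replicate 2, while 28.7% and 29.6% were shared with the inhibitory libraries. The larger covered length of the excitatory libraries turned round when each library gave the same number of its strongest peaks, from 61.9 Mb more to a difference of -21.4 Mb. With 2 libraries on each side, the smallest two-sided p that an exact permutation test can give is 0.333, so it cannot pass 0.05 for a value with 1 number per library.

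To see where the mark lay, covered bases were assigned to gene starts, gene bodies and intergenic space. Sequence within 2 kb of an annotated start makes up 2.51% of the genome and held 5.61% and 5.67% of the covered bases in the excitatory pair and 6.99% and 7.27% in the inhibitory libraries. The rest of the gene bodies held 60.5% and 62.1% against 62.6% and 66.9%, from 38.1% of the genome. Space more than 5 kb from any gene body held 29.6% and 28.3% of the covered bases in the excitatory pair and 26.3% and 22.1% in the inhibitory libraries. The types did not overlap in any of these 3 shares, with the exact permutation p at its floor of 0.333, and the share outside genes differed by 4.72 points. From peaks at a -log10 p of 3 or more that share was 37.3% and 39.8% against 39.9% and 36.2%, where the types overlapped (difference 0.474, exact permutation p = 1.0). In all 4 libraries the mark was thus denser in genes and densest near starts.

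Coverage around the 17274 gene starts with a known strand had 1 main summit inside the gene. At the start itself 17.2% and 21.6% of bases were covered in the excitatory pair and 18.98% and 16.5% in the inhibitory libraries. The maximum lay 1750 bp into the gene in every library, at 27.2% and 33.2% against 30.4% and 30.5%. Far upstream, beyond the summit, coverage was 9.13% and 10.02% against 8.12% and 6.69%. The CpG content of the promoter went with the level at the start. Over 8452 promoters with an observed-to-expected CpG ratio above 0.6, the 4 kb around the start was covered to 26.2% and 31.5% in the excitatory pair and 28.8% and 26.3% in the inhibitory libraries. Over the 8822 others it was 12.4% and 14.4% against 12.5% and 11.2%. In neither class did the types separate.

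**Figure D1:**
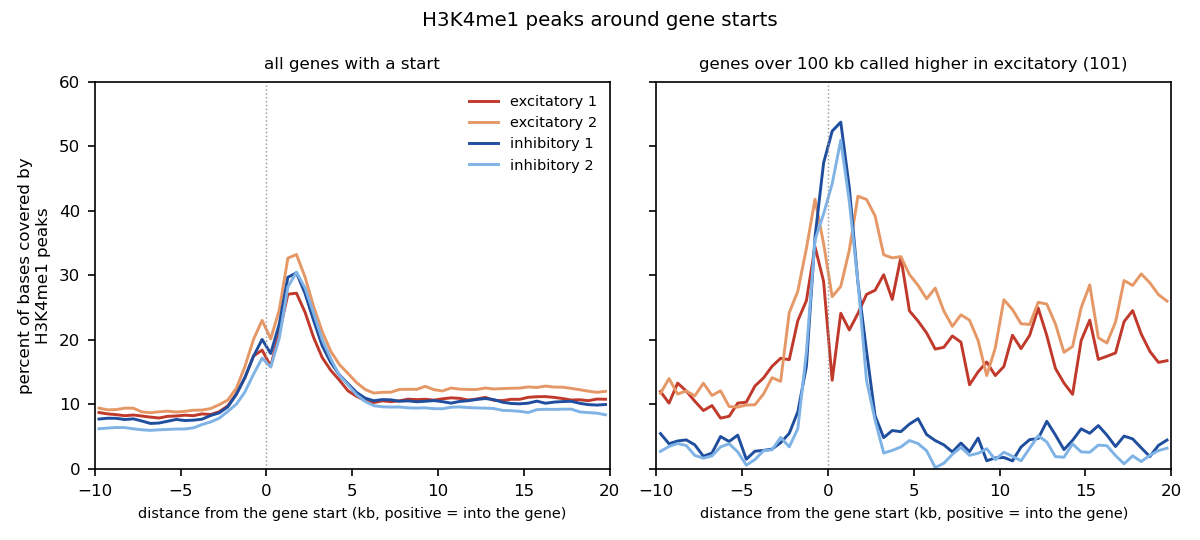
Percent of bases covered by H3K4me1 peaks in 500 bp steps from 10 kb upstream to 20 kb inside the gene, 1 line per library, for all 17274 genes with a start (left) and for the 101 genes over 100 kb called higher in the excitatory libraries (right). Over all genes the 4 lines share a slight dip just inside the start and a maximum at 1750 bp; over the long called genes the inhibitory lines rise to a narrow summit at the start and fall to a few percent, while the excitatory lines dip at the start and stay up along the gene.

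The gene comparison asked at which genes the mark differed between the types. The value of a gene is the percent of its body plus 5 kb on both sides that lay under peaks. Differences are given in percentage points, with a positive sign where the excitatory libraries had more, after quantile normalization of the 4 libraries, and were tested with limma over 18017 genes. The coverage filter asked for 1 covered base or more in at least 2 libraries, which the 2 libraries of a type can meet alone. At an adjusted p under 0.05, 456 genes (2.53% of those tested) were higher in the excitatory libraries and 276 (1.53%) in the inhibitory libraries. Before normalization both libraries of a type lay above both of the other at 7086 genes (39.3%) toward the excitatory and at 2759 (15.3%) toward the inhibitory libraries. The lowest adjusted p was 0.0401, shared by 235 genes, so all calls stand close to the threshold. By limma no gene passed the adjusted threshold without excitatory replicate 1 (4375 at an unadjusted p under 0.05), inhibitory replicate 1 (2886) or inhibitory replicate 2 (2737), or with equal numbers of peaks (3911), while without excitatory replicate 2 the counts were 418 and 89. All 456 and all 276 kept their direction in each of the 4 fits that left out a library. They were chosen by the fit on all 4 libraries, so this is no separate check of the calls.

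Among the 15 largest differences toward the excitatory libraries were genes of secreted peptides, receptors and a channel. Vgf, the precursor of activity-regulated secreted peptides (chr5:137025301-137033351, mm10), was covered to 35.1% and 49.6% in the excitatory pair and to 4.23% and 8.17% in the inhibitory libraries, which gave 35.0 points ± 3.90 (SE). Kcna5, a voltage-gated potassium channel of the Shaker family (chr6:126532551-126535555), had 25.9% and 39.3% against 2.26% and 0%, which gave 30.9 ± 3.22. F2rl2, a protease-activated receptor (chr13:95696920-95702768), had 31.5% and 29.7% against 0% in both inhibitory libraries. The 15 genes were chosen so that the types do not overlap, so these values show only how far apart the libraries lay. F2rl2 met the coverage filter through the excitatory pair alone. Cebpb, a basic leucine zipper transcription factor, had 24.98% and 47.6% against 7.30% and 0%, and its excitatory libraries differed from each other by more than its inhibitory ones. Tac2, the neurokinin B precursor, had 30.5% and 30.9% against 1.88% and 4.75%. Gpr26, an orphan receptor expressed in brain, had 27.4% and 30.8% against 4.70% and 0.998%.

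The 15 largest differences toward the inhibitory libraries held 7 transcription factor genes of early patterning: Tlx3, Barhl2, Hoxa7, Zic5, Otx2, Olig3 and Nkx2-3. Tlx3, a homeobox gene of hindbrain and spinal sensory neurons (chr11:33200752-33203588), was covered to 5.77% and 5.22% in the excitatory pair and to 31.7% and 44.0% in the inhibitory libraries, which gave -32.9 points ± 3.94 (SE). Barhl2, a homeobox gene of diencephalon and hindbrain (chr5:106452523-106458166), had 5.98% and 2.26% against 30.7% and 27.7%. Olig3, a basic helix-loop-helix factor of dorsal hindbrain and thalamic progenitors (chr10:19356539-19358604), had 2.45% and 7.19% against 26.2% and 29.9%. That both inhibitory libraries stood above both excitatory ones at each of them was required by the choice of the 15. S100g, a small calcium-binding protein gene on the X chromosome (chrX:162961992-162964599), had the largest difference of this direction, with 3.55% and 4.12% against 33.2% and 45.5%, or -36.1 ± 4.01. Ifna15, an interferon gene in the Ifna cluster (chr4:88557673-88558245), had 0% against 26.7% and 24.3%, and its neighbours share much of its window. It met the coverage filter through the inhibitory pair alone.

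**Figure D2:**
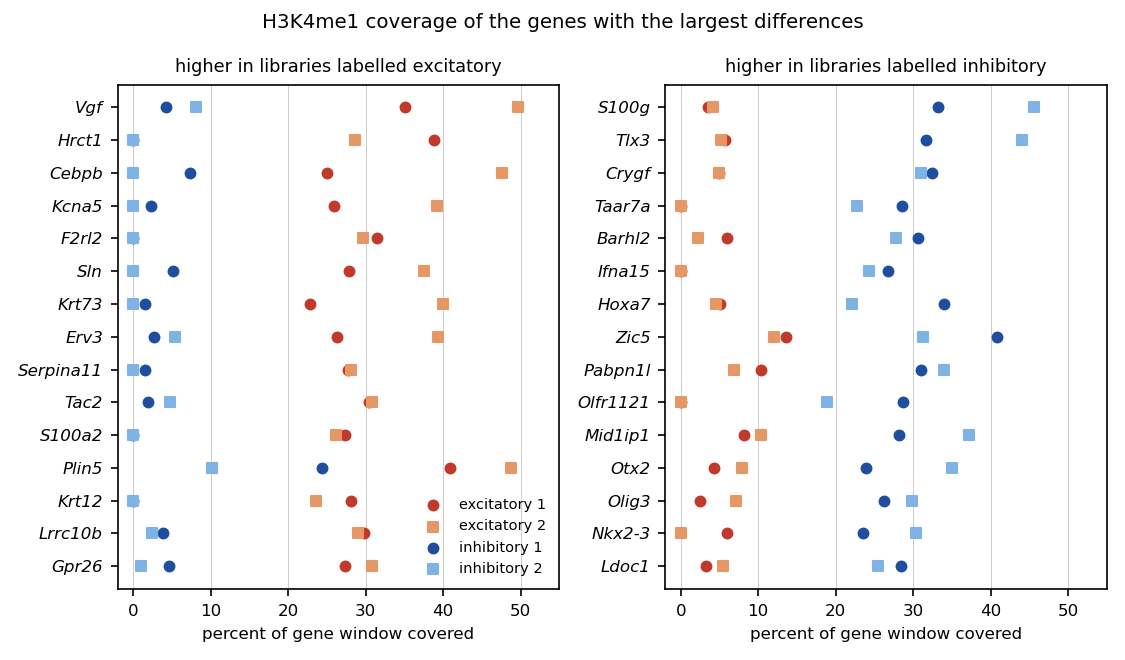
Percent of the gene window (body plus 5 kb on both sides) covered by H3K4me1 peaks in each of the 4 libraries, for the 15 genes per direction with the largest called difference. Each point is 1 library; the genes were chosen so that the types do not overlap, and the points show how far apart they lie.

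Called genes of both directions had promoters poorer in CpG than other genes. In the RefSeq promoters of GRCm38.p6 (250 bases before to 50 after the start), the CpG ratio was above 0.6 in 35.9% of 365 promoters of genes higher in the excitatory libraries and in 36.5% of 219 of those higher in the inhibitory libraries, against 58.4% of all 14317 tested genes with a promoter. The median number of CpG per promoter was 9 and 8 against 17. The 4 promoters below are shown because they are the extremes of this measure among the 26 genes with a promoter in the lists of 15, with the 250 bases upstream of the start printed 5′ to 3′ on the strand of the gene and each CpG in capitals. F2rl2 (chr13:95696670-95696919, plus strand) and Cebpb (chr2:167688665-167688914, plus strand) were higher in the excitatory libraries, and Ifna15 (chr4:88558246-88558495, minus strand) and Barhl2 (chr5:106458167-106458416, minus strand) in the inhibitory libraries:
F2rl2: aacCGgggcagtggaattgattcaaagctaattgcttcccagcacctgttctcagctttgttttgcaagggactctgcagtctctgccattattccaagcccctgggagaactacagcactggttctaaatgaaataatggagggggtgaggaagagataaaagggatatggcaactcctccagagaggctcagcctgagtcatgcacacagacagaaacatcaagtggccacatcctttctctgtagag
Cebpb: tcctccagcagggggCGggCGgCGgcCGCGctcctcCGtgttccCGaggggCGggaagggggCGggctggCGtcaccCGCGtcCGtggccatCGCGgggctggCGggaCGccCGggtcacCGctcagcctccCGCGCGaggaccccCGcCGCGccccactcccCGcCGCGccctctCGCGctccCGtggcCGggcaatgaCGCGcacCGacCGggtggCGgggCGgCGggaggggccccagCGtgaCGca
Ifna15: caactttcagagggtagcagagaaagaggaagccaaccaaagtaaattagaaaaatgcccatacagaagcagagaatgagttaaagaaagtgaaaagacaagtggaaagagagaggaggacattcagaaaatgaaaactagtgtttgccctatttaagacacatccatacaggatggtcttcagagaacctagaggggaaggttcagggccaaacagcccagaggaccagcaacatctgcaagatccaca
Barhl2: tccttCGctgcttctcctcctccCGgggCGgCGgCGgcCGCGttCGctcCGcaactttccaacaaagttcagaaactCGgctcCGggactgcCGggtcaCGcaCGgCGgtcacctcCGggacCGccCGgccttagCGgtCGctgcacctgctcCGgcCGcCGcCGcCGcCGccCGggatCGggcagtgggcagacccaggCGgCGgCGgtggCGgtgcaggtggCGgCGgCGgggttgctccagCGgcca
These stretches hold 1, 41, 0 and 36 CpG in that order. Within 2 kb of the start, F2rl2 was covered to 51.7% and 53.0% in the excitatory libraries and Cebpb to 11.8% and 46.6%, against 0% in the inhibitory libraries for both. Ifna15 had 11.2% and 3.97% and Barhl2 9.57% and 13.2% in the inhibitory libraries, against 0% in the excitatory libraries for both.

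The labels were checked against marker genes. Of 10 excitatory neuron markers none was called, with 8 positive differences and a median of 2.86 points (5 and 0.328 with equal numbers of peaks), and of 10 inhibitory neuron markers only Gad1 was called, toward the excitatory libraries. Gad1, which encodes a GABA-synthesizing enzyme (chr2:70561303-70602014), was covered to 21.2% and 25.4% in the excitatory pair and to 4.42% and 7.41% in the inhibitory libraries, which gave 14.9 ± 2.79 (adjusted p = 0.0497). Within 2 kb of its start the order was not kept, with 26.5% and 51.0% against 41.3% and 62.8%. Slc17a7, which loads glutamate into synaptic vesicles in cortex, had 23.3% and 27.8% against 22.3% and 22.9% (adjusted p = 0.649). Both excitatory libraries lay above both inhibitory ones at 7 of the 10 excitatory neuron markers, Slc17a7 among them, and also at 4 of the 10 inhibitory neuron markers, as they did at 39.3% of all genes. The opposite order held at 1 and 2 of these markers and at 15.3% of all genes. Mean coverage of the 10 oligodendrocyte markers was 16.3% and 16.5% in the excitatory pair and 13.3% and 11.8% in the inhibitory libraries, of the 10 microglial markers 10.1% and 10.3% against 9.19% and 4.88%, and of the 10 vascular markers 10.3% and 12.9% against 8.57% and 7.69%. No marker of these lists was at 0 in all 4 libraries, and Cldn5, an endothelial tight junction gene, was called toward the excitatory libraries. The part of such cells in the differences below was not tested.

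Receptor genes were called mostly toward the excitatory libraries. Of 26 glutamate receptor genes 8 were higher there and 0 in the inhibitory libraries, with a median difference of 5.05 points against -0.342 over all genes, of which 2.53% and 1.53% were called. With equal numbers of peaks that median was 2.01, with 15 of 26 positive. Gria1, an AMPA receptor subunit (chr11:57011571-57330244), had 21.1% and 28.8% against 4.16% and 2.37%. Grm7, a presynaptic metabotropic receptor, had 14.5% and 17.5% against 1.48% and 0.893%, and Grik4, a kainate receptor subunit of hippocampal CA3, had 21.1% and 24.4% against 7.48% and 4.57%. The types did not overlap at any of these 3 genes, as at 39.3% of all genes toward the excitatory libraries. The 3 were chosen by their difference or after their values were seen, so this is no separate result. Of 57 receptor genes for monoamines, acetylcholine and opioids 9 were higher in the excitatory libraries and 0 in the inhibitory, with a median of 4.91 (3.11 with equal numbers of peaks). They include Htr2a, the serotonin 2A receptor of cortical pyramidal neurons, with 22.9% and 23.0% against 4.24% and 2.35%. Hrh3, the presynaptic histamine receptor, had 33.5% and 37.2% against 19.2% and 10.9%, and Oprd1, the delta opioid receptor, 21.8% and 22.6% against 5.61% and 4.77%. Of 32 GABA and glycine receptor and transporter genes, Slc6a11, Gabra2, Gabra5 and Gabrg3 were higher in the excitatory libraries and Gabra6, the subunit of cerebellar granule cells, in the inhibitory libraries, with 5.26% and 7.80% against 24.2% and 23.8%.

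Potassium channel genes were called toward the excitatory libraries alone, while calls of neuropeptide genes went in both directions. Of 40 voltage-gated potassium channel genes 6 were higher in the excitatory libraries and 0 in the inhibitory, with a median of 4.25 points. After Kcna5 these were Kcng1, a modifier subunit, with 22.04% and 30.7% against 6.28% and 2.68%, then Kcnq5, a subunit of the M-current, Kcnh5, Kcnc2 and Kcnh7. Kcnq5 (chr1:21398399-21962650) had 17.8% and 23.4% against 3.04% and 2.14%. Of 40 sodium and calcium channel genes (median 0.70) 2 were called, both toward the excitatory libraries, where 2.53% of all genes were called: Scn3a, a sodium channel, with 20.1% and 19.4% against 1.86% and 0%, and Cacng3, an AMPA receptor auxiliary subunit, with 20.3% and 23.5% against 3.24% and 2.07%. Of 32 neuropeptide precursor genes Vgf, Tac2 and Cort were higher in the excitatory libraries and Crh and Npvf in the inhibitory. Toward the inhibitory libraries 1.53% of all genes were called. Cort, the cortistatin gene of cortical interneurons, had 14.9% and 15.6% against 0% in both, so it met the coverage filter through the excitatory pair alone. Crh, corticotropin-releasing hormone, had 0% and 8.04% against 16.8% and 14.3%. A gene known from interneurons was thus found on either side.

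Lists of forebrain projection neurons had positive medians and few calls. Over all genes 2.53% were called toward the excitatory and 1.53% toward the inhibitory libraries, and over those above 100 kb 5.52% and 0.706%. Of 16 deep-layer cortical genes 3 were higher in the excitatory libraries and 0 in the inhibitory, with a median of 4.81 points. Ldb2, a cofactor of LIM-homeodomain factors, had 20.9% and 25.2% against 3.98% and 3.45%. Hs3st4, a heparan sulfate sulfotransferase of layer 6, had 17.9% and 21.9% against 3.42% and 2.21%, and Pcp4, a calmodulin-binding peptide, 21.2% and 24.0% against 7.59% and 4.56%. Rasgrf2 was the 1 called of 15 upper-layer genes (median 4.396), Ociad2, Kcnq5 and Grik4 the 3 of 17 hippocampal genes (median 7.10), and Meis2, a homeobox cofactor, the 1 of 20 striatal projection neuron genes (median 5.004), all toward the excitatory libraries. Meis2 had 19.2% and 26.1% against 3.42% and 3.31%. With 1 call each, the upper-layer and striatal lists are not set apart from the shares over all genes. Of 71 axon guidance genes 5 were higher in the excitatory libraries, among them the receptors Nrp1 and Unc5d and the ephrin Efna5, and Epha2 in the inhibitory, with a list median of 0.14 points. With equal numbers of peaks the medians of the deep-layer, upper-layer and striatal lists came down to 0.68, 0.66 and 1.8 points, beside 0.106 over all genes. Within 2 kb of the start alone the medians turned negative, to -14.7 for deep-layer, -9.07 for hippocampal, -5.12 for striatal, -3.85 for upper-layer, -12.5 for glutamate receptor and -2.24 for potassium channel genes.

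Homeobox, HOX and forkhead genes, which encode developmental transcription factors, had negative medians and were called mostly toward the inhibitory libraries. The shares over all genes were 1.53% toward the inhibitory and 2.53% toward the excitatory libraries. Of 123 homeobox genes outside the HOX clusters 21 were higher in the inhibitory libraries and 2, Meis2 and Prrx2, in the excitatory, with 98 negative differences (76 without quantile normalization) and a median of -5.76 points. Six6, a factor of hypothalamus and eye, had 0% against 15.9% and 14.8%. Msx1, a factor of the dorsal midline, had 9.36% and 19.9% against 35.6% and 37.6%, and Gsx1, a patterning factor of ventral telencephalon and hindbrain, 10.9% and 10.8% against 29.95% and 32.5%. At none of the 3 did the types overlap, as at 15.3% of all genes toward the inhibitory libraries. The 3 were chosen by their difference or after their values were seen, so this is no separate result. All 33 tested HOX genes had negative differences (median -7.32), 29 of 33 without quantile normalization and 26 of 31 with equal numbers of peaks (median -4.31), 7 of them called, and their windows overlap within clusters. Hoxd9 had 0% against 13.1% and 14.3%, and like Six6 it met the coverage filter through the inhibitory pair alone. Of 42 forkhead genes 7 were higher in the inhibitory libraries and 0 in the excitatory, with a median of -4.68 (-2.21 with equal numbers of peaks), among them Foxa1 and Foxa2, factors of midbrain dopamine neurons and floor plate, and Foxd3, a neural crest factor. Foxa2 had 4.19% and 7.80% against 22.4% and 18.97%. Of 19 SOX genes none was called at an adjusted p under 0.05. By limma 5 of them had an unadjusted p under 0.05 toward the inhibitory libraries, beside 2276 of all 18017 genes.

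Lists of thalamic, midbrain, hindbrain and cerebellar genes and of interneuron transcription factors also had negative medians. Their calls stand beside 1.53% of all genes called toward the inhibitory and 2.53% toward the excitatory libraries. Of 27 genes of thalamic, midbrain and hindbrain neurons 9 were higher in the inhibitory libraries and 0 in the excitatory, with a median of -9.30 points (-4.43 with equal numbers of peaks), and of 20 cerebellar genes 3 were, with a median of -5.92. Otx2, a homeobox gene of midbrain and thalamus (chr14:48656781-48667644), had 4.32% and 7.96% against 23.9% and 35.0%. En1, a homeobox gene of midbrain and cerebellum, had 1.90% and 5.51% against 17.4% and 19.3%, and Zic5 had 13.6% and 12.1% against 40.8% and 31.3%. Of 23 transcription factors of the interneuron lineage 3 were higher in the inhibitory libraries and 0 in the excitatory, with a median of -5.39. Nkx2-1, the factor of the medial ganglionic eminence, had 5.06% and 9.51% against 17.9% and 20.9%. Lhx8, a factor of forebrain cholinergic neurons, had 1.72% and 2.63% against 17.0% and 10.9%, and Sp8, a factor of caudal and lateral eminence interneurons, 3.98% and 4.35% against 22.1% and 21.2%. Many of these factors stand in more than 1 list: Tlx3, Barhl2 and Otx2 count as homeobox and as thalamic, midbrain and hindbrain genes.

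**Figure D3:**
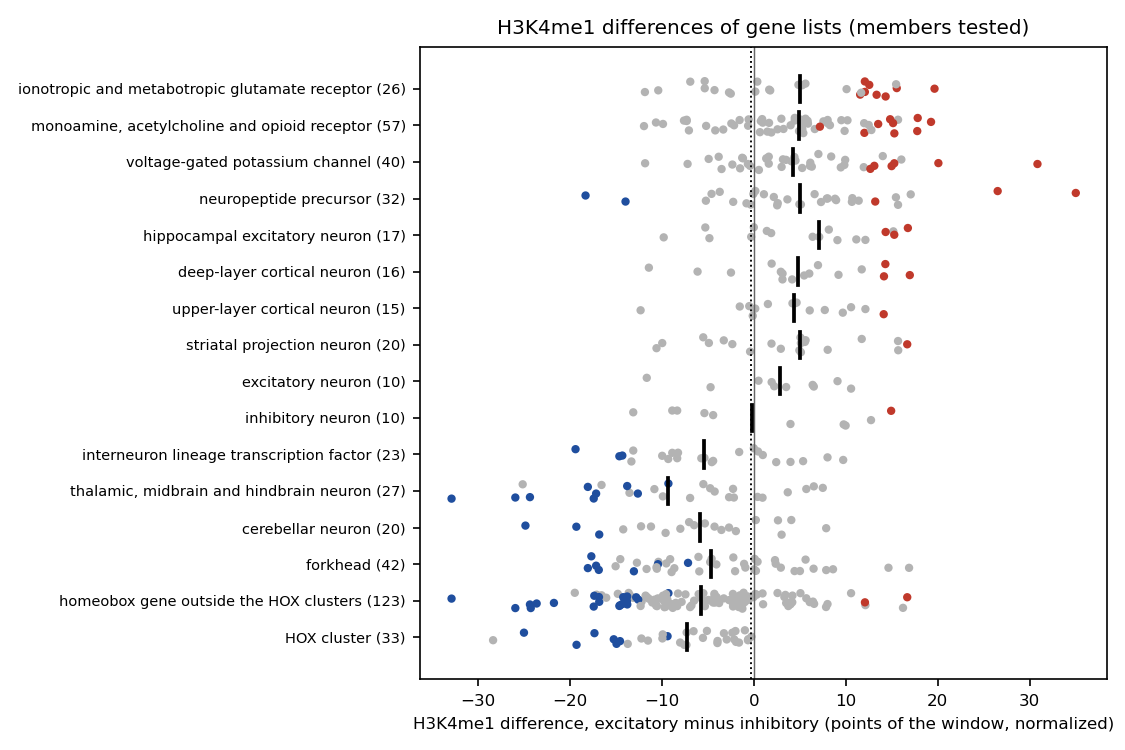
H3K4me1 difference (excitatory minus inhibitory, points of the gene window after quantile normalization) of every tested member of 16 gene lists; red points are members called higher in the excitatory libraries, blue points those called higher in the inhibitory libraries, black bars the list medians, and the dotted line the median of all genes at -0.342. Receptor, channel and forebrain neuron lists lie to the right with medians up to 7.10, and the transcription factor lists to the left with medians down to -7.32, with the thalamic, midbrain and hindbrain list at -9.30.

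The length of a gene and the place of the mark within it differed with the direction. Of 2408 tested genes over 100 kb, 133 (5.52%) were higher in the excitatory pair and 17 (0.706%) in the inhibitory libraries, while of 5083 genes under 10 kb 128 (2.52%) and 161 (3.17%) were. A start on a known strand was available for 101 of the 133 long genes, and the values that follow were looked at after the gene calls were known. More than 5 kb inside these 101 genes, mean coverage was 18.7% and 23.1% in the excitatory pair and 4.31% and 2.77% in the inhibitory libraries, which is what the calls rest on. Within 2 kb of the start the order was not the same, with 24.5% and 33.7% against 35.8% and 33.1%. In the first 500 bp of the gene it was turned round, with 13.8% and 26.7% in the excitatory pair and 52.3% and 44.2% in the inhibitory libraries. In the inhibitory libraries H3K4me1 at these genes thus stood as a narrow block on the start, and in the excitatory libraries it had a gap at the start and ran on into the gene. For comparison, over all 1850 genes over 100 kb with a start the 4 kb around the start was covered to 24.1% and 29.9% against 26.8% and 25%. Their first 500 bp had 20.7% and 25.8% against 25.8% and 23.3%, and the bin at 1750 bp 33.45% and 43.6% against 36.2% and 38.1%. More than 5 kb inside they had 14.0% and 17.1% against 12.2% and 11.4%. A dip at the start was thus shared by all 4 libraries over long genes in general, while the narrow inhibitory block was not seen there.

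Nrp1, a semaphorin and VEGF co-receptor (chr8:128358591-128505476), showed the turned order at the start most plainly among the named genes. Its whole window was covered to 19.6% and 23.3% in the excitatory pair and 3.10% and 2.43% in the inhibitory libraries, while the 4 kb around its start had 25.8% and 15.9% against 62.1% and 61.8%. Efna5, an ephrin ligand (chr17:62602957-62881317), had 21.7% and 25.99% against 7.499% and 5.155% over the window and 9.32% and 12.6% against 57.1% and 40.8% at the start. Grm7 had 13.7% and 38.2% against 78.1% and 49.2% at the start. At these 3 genes, picked with their values known, the types did not overlap either over the window or at the start, and the order was opposite. Gabrg3, a GABA-A receptor subunit gene, went the same way in both places, with 24.4% and 29.2% against 0% and 7.35% at the start. Of the 98 long genes in the fit of start windows 61 had a negative difference (27 at an unadjusted p under 0.05) and 37 a positive one (12), beside 863 and 833 of all 1696 long genes. By adjusted p no start window was called in either direction over 12416 genes, with 1807 at an unadjusted p under 0.05.

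The other antibodies differed at the same starts. Over the 101 long genes H3K27me3 covered 20.6% and 28.2% of the 4 kb around the start in the excitatory libraries and 53.5% and 47.5% in the inhibitory, against 14.4% and 16.2% and then 22.9% and 21.4% over all genes over 100 kb. H3K4me3 covered 43.4% and 49.6% against 31.1% and 32.4%, and H3K27ac 22.1% and 22% against 11.9% and 11.7%. Nrp1 had 12.0% and 27.5% of the start under H3K27me3 in the excitatory pair and 93.6% and 69.9% in the inhibitory libraries. The means are over all 101 genes, not over those with the lower start alone. Starts of the 264 shorter genes called toward the excitatory libraries differed in the same directions, with H3K27me3 at 17.9% and 21.4% against 36.4% and 36.3%, H3K4me3 at 17.5% and 20.9% against 12.1% and 12.3%, and H3K27ac at 10.3% and 13.3% against 5.22% and 6.62%. These libraries were not used to call the genes. With the same number of strongest H3K4me1 peaks in each library the start had 11.4% and 20.8% against 33.4% and 33.1%, and the inside of the genes 8.56% and 13.5% against 3.22% and 2.77%. From peaks at a -log10 p of 3 or more, the start of the 101 genes had 0.0426% and 0.475% against 1.29% and 3.86%. The inside had 0.0743% and 0.37% against 0.314% and 0.65%, so the difference inside the genes was not kept. The start of all genes over 100 kb had 0.233% and 0.547% against 1.05% and 2.23% from these peaks. Those shorter genes did not share the H3K4me1 pattern, with 25.5% and 30.7% against 12.4% and 9.14% at the start of 264 genes. At the starts of genes called toward the inhibitory libraries coverage was 10.7% and 12.4% against 26% and 26.4%, over 219 genes.

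The X chromosome stood apart from the autosomes. Peaks covered 1.92% and 2.98% of it in the excitatory pair and 2.51% and 2.61% in the inhibitory libraries, a ratio of 0.957 between the means, while the ratio lay between 1.28 and 1.46 on every autosome. Set against the mean autosome of its library, X coverage was 0.216 and 0.288 in the excitatory pair and 0.332 and 0.399 in the inhibitory libraries. Of 591 X-linked genes tested 5 (0.846%) were higher in the excitatory pair and 24 (4.06%) in the inhibitory libraries, against 451 (2.59%) and 252 (1.45%) of 17426 autosomal genes. The X-linked median difference was -3.57 points, and that of autosomal genes -0.218. Among the genes on X with more of the mark in the inhibitory libraries were Kdm6a, a histone demethylase (chrX:18160862-18279936), with 10.8% and 13.2% against 22.6% and 22.1%, and Slitrk4, a synaptic adhesion protein, with 6.88% and 7.66% against 17.0% and 19.2%. The sex of the mice is not given in the labels, and its part was not tested.

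Genes with much of the mark in every library were found by their lowest library, a choice that favours genes high in both types. Among genes over 20 kb the highest lowest-library coverage was that of Atp1b1, a sodium pump subunit (chr1:164437099-164458355), with 30.9% and 40.4% in the excitatory pair and 32.4% and 31.4% in the inhibitory libraries, which gave 4.25 ± 3.84. Pptc7, a mitochondrial phosphatase, had 30.01% and 30.8% against 36.6% and 32.7%, and Ell, an elongation factor, 27.9% and 31.1% against 29.7% and 30.7%. The values of the types overlapped at Atp1b1 and Ell, while at 4 of the 10 genes of this kind (Pptc7, Bahd1, Fgf9 and Mxi1) both inhibitory libraries lay above both excitatory ones. None of the 10 was called, though the sign at Atp1b1 and at Ell turned with equal numbers of peaks.

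Intergenic space was read in 62140 windows of 20 kb that lie more than 5 kb from every protein-coding gene body. Of 36032 windows tested, 2989 (8.30%) were higher in the excitatory libraries and 3211 (8.91%) in the inhibitory, and those whose libraries also separated before normalization (2989 and 3201) were joined into 2436 and 2742 blocks of adjacent windows. By limma's adjusted p both counts fell to 0 without quantile normalization (14193 at an unadjusted p under 0.05), with equal numbers of peaks (10616), and without excitatory replicate 2 (13300), inhibitory replicate 1 (8430) or inhibitory replicate 2 (8661), and they were 4849 and 3513 without excitatory replicate 1. Before normalization both libraries of a type lay above both of the other at 17658 windows (49.0%) toward the excitatory and at 5937 (16.5%) toward the inhibitory libraries, and mean coverage of a window was 4.33% and 4.94% against 3.33% and 2.44%. Within 50 kb of a gene 9.63% of windows were higher in the excitatory pair and 7.76% in the inhibitory libraries, and beyond 500 kb 3.21% and 12.8%. Before normalization the order beyond 500 kb was the other way, with libraries that separated at 1678 windows toward the excitatory and at 1036 toward the inhibitory libraries.

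The largest intergenic differences are named by the protein-coding genes on either side. The window with the largest difference toward the excitatory libraries, chr11:32100001-32120000 between Nsg2, a neuronal vesicle protein gene, and Il9r, was covered to 43.7% and 44.7% against 7.05% and 1.68%, which gave 37.3 points ± 3.91 (SE, adjusted p = 0.00853). A block at chr6:136220001-136260000, 46.4 kb from the NMDA receptor gene Grin2b, had 22.9% and 23.6% against 0.735% and 0%, and a block at chr8:66720001-66800000, 13.2 kb from the neuropeptide Y receptor gene Npy1r, 20.3% and 22.2% against 2.11% and 0.368%. The longest block of this direction, 160 kb at chr11:26040001-26200000 in the gene-poor stretch between Bcl11a and Fancl, had 17.6% and 24.0% against 0.368% and 0%. In these 4 places the inhibitory libraries lay between 0% and 7.05%.

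Toward the inhibitory libraries the largest difference was at chr7:142560001-142580000 between Mrpl23 and the imprinted growth factor gene Igf2, with 8.24% and 6.495% against 33.1% and 44.6%, or -33.8 ± 4.32 (adjusted p = 0.00853). A window at chr5:106420001-106440000, 12.5 kb from Barhl2, had 3.09% and 0% against 30.6% and 22.6%, the same direction as Barhl2 itself. Blocks at chr9:91520001-91560000 and chr9:91920001-92060000 lay between Zic4, a cerebellar zinc-finger gene, and Plscr5. They were 131 and 531 kb from Zic4 and 627 and 127 kb from Plscr5. The second block, 140 kb long, had 2.15% and 2.43% against 15.4% and 17.97%. A block of 120 kb at chr5:139560001-139680000 began 11.8 kb from Uncx, a homeobox gene that was itself called toward the inhibitory libraries.

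**Figure D4:**
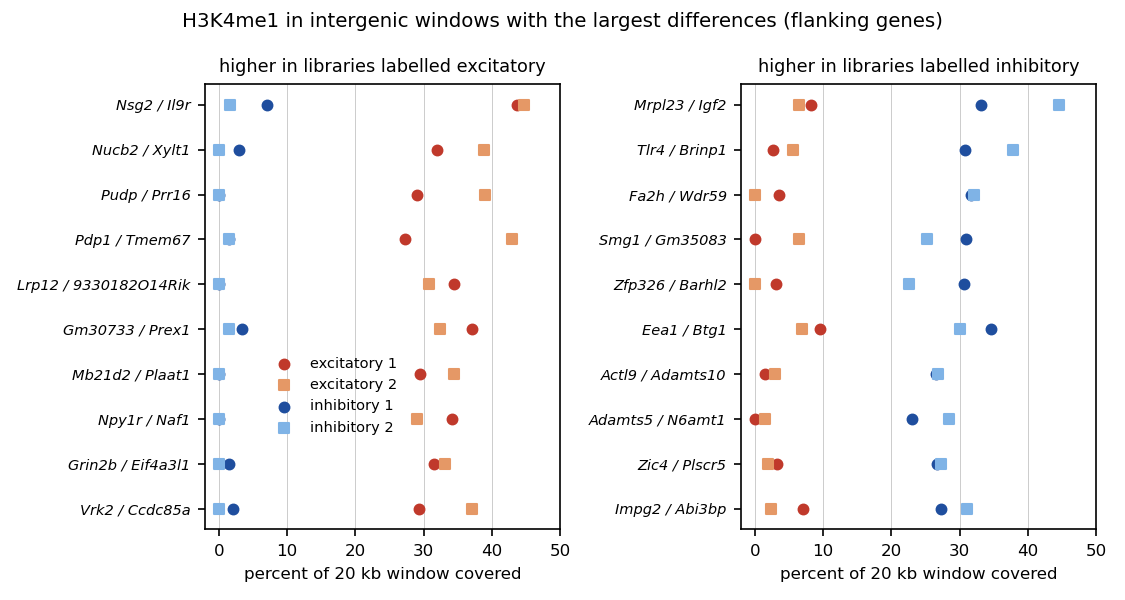
Percent of the 20 kb window covered by H3K4me1 peaks in each of the 4 libraries, for the window with the largest difference in each of the 10 intergenic blocks per direction with the largest differences, named by the protein-coding genes on either side. On the left the inhibitory libraries lie between 0% and 7.05%; on the right the excitatory libraries lie between 0% and 9.53%.

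Windows were also grouped by the list membership of the nearest gene. Of 125 windows nearest to cerebellar genes 32 (25.6%) were higher in the inhibitory and 3 (2.40%) in the excitatory libraries, and of 159 nearest to thalamic, midbrain and hindbrain genes 25 (15.7%) and 9 (5.66%). Of 118 windows nearest to upper-layer cortical genes 2 (1.69%) were higher in the inhibitory and 17 (14.4%) in the excitatory libraries. Of 191 nearest to later activity-regulated effector genes 8 (4.19%) and 27 (14.1%) were. Over all windows the shares were 8.91% and 8.30%, and over windows more than 500 kb from a gene 12.8% and 3.21%. The lists were not matched for distance to the gene. In these 4 lists the larger share lay on the side of the gene median. It did not for deep-layer cortical genes (23 inhibitory and 16 excitatory of 194 windows, gene median 4.81), neuropeptide genes (10 and 7 of 139, median 5.03, and 2.87 with equal numbers of peaks) or axon guidance genes (70 and 20 of 604, median 0.14). Nor did it for synaptic adhesion genes, with 105 (14.2%) of 740 windows higher in the inhibitory and 26 (3.51%) in the excitatory libraries and a gene median of 0.59 points. Neighbouring windows share a gene, and the windows of these lists come from 12 to 40 genes.

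The regions marked in 1 type alone were then described by the other antibodies. Peaks of both excitatory libraries and no inhibitory one made up 61602 regions, and peaks of both inhibitory libraries and no excitatory one 13389, with median widths of 1152 and 1089 bp, beside 69262 of 2467 bp with a peak in all 4. With equal numbers of peaks the counts were 23822 and 27104, so the excess of excitatory regions was not kept. Starts within 2 kb took 1.90% and 3.32% of the specific regions and 8.57% of the shared ones. Of the excitatory regions 19.98% had an H3K27ac peak in both excitatory H3K27ac libraries and 1.83% in both inhibitory ones, and of the inhibitory regions 3.92% and 18.6%. Over all 471971 regions the H3K27ac shares were 12.4% and 11.5%. EGR1 peaks were in both excitatory EGR1 libraries at 24.9% of the excitatory regions and in both inhibitory ones at 5.06%, while the inhibitory regions had 3.79% and 3.23%. Over all regions the EGR1 shares were 13.6% and 6.44%, so both shares at the inhibitory regions lay below them. H3K27me3 peaks were in both inhibitory libraries at 27.7% of the excitatory regions and in both excitatory ones at 14.1%. At the inhibitory regions these shares were 17.5% and 13.2%, and over all 471971 regions 16.7% and 10.9%. Among regions of 1 to 2 kb the H3K27ac shares were 21.9% and 1.75% for 28592 excitatory and 3.97% and 22.4% for 6292 inhibitory regions.

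At the called genes the other antibodies, each in its own 4 libraries, moved with H3K4me1. H3K27ac was higher in the excitatory libraries at 399 of 417 genes (95.7%) with more H3K4me1 there and at 20 of 204 (9.80%) with more in the inhibitory libraries, against 48.9% of 16654 genes. At an unadjusted p under 0.05 it was higher in the excitatory libraries at 291 of the 417 (69.8%, 9.84% of all genes) and lower at 105 of the 204 (51.5%, 8.41% of all genes), and no gene passed an adjusted p of 0.05. H3K4me3 was higher at 371 of 417 (89.0%) and at 46 of 234 (19.7%), against 49.99% of all. At an unadjusted p under 0.05 it was higher at 174 (41.7%, 9.17% of all genes) and lower at 95 (40.6%, 10.1% of all genes). H3K27me3 went the other way, higher at 82 of 430 (19.1%) and at 152 of 230 (66.1%), against 50.7% of all. At an unadjusted p under 0.05 it was lower at 188 of the 430 (43.7%, 15.2% of all genes) and higher at 60 of the 230 (26.1%, 13.7% of all genes). EGR1 was higher at 347 of 435 (79.8%) and at 38 of 148 (25.7%), against 43.8% of all, with 186 (42.8%, 12.4% of all genes) and 55 lower (37.2%, 12.9% of all genes) at an unadjusted p under 0.05. By adjusted p, 64 genes were higher and 47 lower for H3K4me3 over all genes and 344 and 88 for EGR1, and none for H3K27me3 (2114 and 2341 at an unadjusted p under 0.05). Without quantile normalization EGR1 was higher at 56.1% of the genes called toward the inhibitory libraries, beside 87.1% of all genes.

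**Figure D5:**
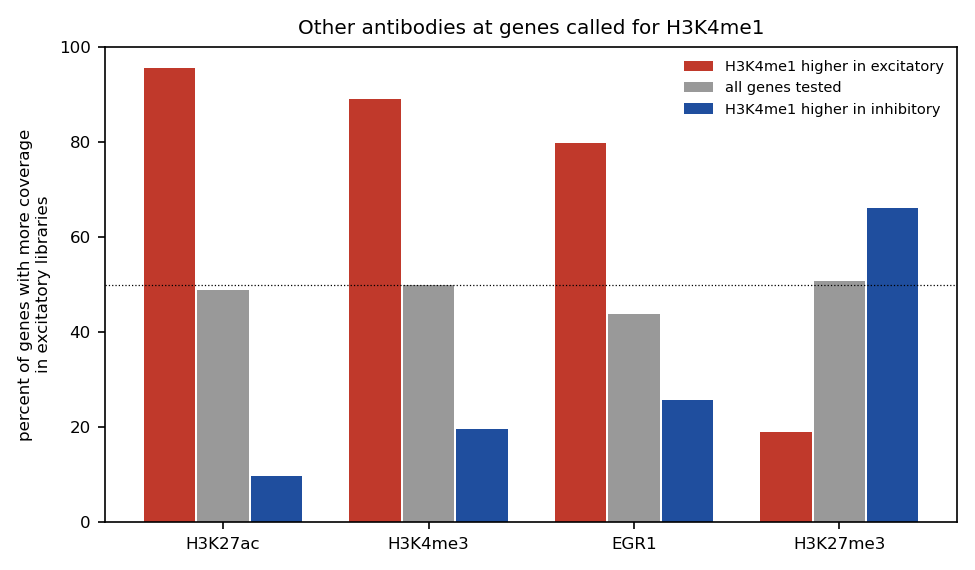
Percent of genes with more coverage in the excitatory than in the inhibitory libraries (normalized, each antibody in its own 4 libraries) among genes called for H3K4me1 in either direction and among all genes of the fit; the dotted line is at 50%. The bars of H3K27ac, H3K4me3 and EGR1 stand above those of all genes where H3K4me1 was higher in the excitatory libraries and below where it was lower, and those of H3K27me3 the other way.

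Single genes carried these relations to a different degree. Kcna5 had H3K4me3 over 9.02% and 10.3% of its window in the excitatory pair and 1.42% and 0% in the inhibitory libraries (adjusted p = 0.0393), and H3K27ac over 8.16% and 17.5% against 0% in both. Ldb2 had H3K27ac over 5.72% and 7.78% against 0% and 0.0781%, and H3K27me3 over 7.45% and 11.2% against 23.0% and 21.2%. Barhl2 had H3K27me3 over 22.6% and 26.5% in the excitatory pair and 0% in the inhibitory libraries, with H3K4me3 at 7.98% and 7.02% against 22.4% and 24.9% (adjusted p = 0.0393). Vgf, with the largest H3K4me1 difference toward the excitatory libraries, had H3K4me3 at 14.8% and 19.2% against 17.4% and 19.2%, where the types overlapped. Over the genes measured with both antibodies Pearson's r with the H3K4me1 difference was 0.47 for H3K27ac (16554 genes), 0.41 for H3K4me3 (17179), -0.31 for H3K27me3 (13515) and 0.29 for EGR1 (16315), given as a description over genes, which are not independent.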

How the data were processed

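H3K4me1 was measured by CUT&RUN in 4 libraries, and 16 libraries of 4 other antibodies were used beside them. Per the submitters' processing notes the authors used MACS2 2.2.5, SAMtools 1.12, Picard 2.25.0, Bowtie2 2.3.5, cutadapt 1.18 and Trim Galore 0.5.0, on mm10. Settings and a control library are not stated there. The deposited lists, 1 per library, give for each peak a fold enrichment (a ratio), a score, and a -log10 p-value and -log10 q-value from the authors' caller; p and q were used to describe, rank or filter peaks, with ties in rank broken by the fold. The lists hold no read counts, so depth is unknown and no counting interval can be given. The number of peaks moves with depth and enrichment.

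The members and lists were chosen with earlier results of these data known. Genes came from RefSeq for GRCm38.p6, the assembly of mm10; 79.9% of 21631 genes had a strand and start, from the promoter table. The percent of each window under peaks was quantile-normalized over 4 libraries and fitted with limma 3.58.1 (R 4.3.3; trend in eBayes, two-sided, Benjamini-Hochberg over all features, threshold 0.05), for features with 1 covered base or more in at least 2 libraries, after a test on simulated data. Levels in the text are not normalized. Named genes are the 15 largest called differences per direction whose libraries do not overlap, up to 5 members with the largest difference per list, label markers, and the 10 genes over 20 kb with the highest lowest-library coverage; intergenic blocks are the 10 largest per direction. Epha2, Gabra5, Gabrg3, Grm7, Gsx1, Kcnh7, Oprd1, Prrx2, Six6 and Uncx, which are outside this rule, were chosen after their values were seen, as were the 5 longest blocks per direction and the values at the starts of long genes. Alternatives were other normalizations, filters, peak sets and windows, a replicate block, and leaving out each library.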

Additional observations from a re-analysis of the deposited data

Results flagged for a closer look

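Peaks on chromosome Y, which entered no comparison, numbered 20 and 22 in the libraries labelled excitatory and 31 and 26 in those labelled inhibitory. They were set aside because the comparisons use chromosomes 1 to 19 and X, and no control library was available to set them against. The groups of 2 libraries are too small for a rule on single outlying libraries.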

How the results depend on the processing

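Counts of called genes were 456 (excitatory) and 276 (inhibitory). They were 0 and 0 within 2 kb of the start, without the flanks, from peaks at a -log10 p of 3 or more, with a replicate block and with equal numbers of strongest peaks, 178 and 113 on the log2 scale, 16 and 4 without the filter, and 1043 and 168 without quantile normalization; leaving out a library gave 0 to 418 and 0 to 89. The unadjusted p was under 0.05 in 1807, 3967, 540, 4773 and 3911 genes in the first 5 of these. The labels do not say whether the replicate numbers pair the libraries. The correlation of deviations was 0.0612 over 18017 genes, which cannot settle this because a pairing need not leave such a correlation. The replicate block changed the window counts to 4010 and 4466. Window counts of 2989 and 3211 became 1368 and 1429 in 10 kb windows, 1405 and 1326 with coverage in all 4 libraries, 465 and 113 without the filter, 0 and 0 without quantile normalization, with equal numbers of peaks and under the same minimum of p, and 0 to 4849 and 0 to 3513 with a library left out. Specific regions numbered 23822 and 27104 with equal numbers of peaks, 168 and 5328 under that minimum, and 25536 inhibitory regions where most of a region had to be covered. The covered length differed by -18.11 Mb under the minimum of p and by -21.37 Mb with equal numbers of peaks.

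For the other antibodies, alternatives chosen after the data were seen gave shares of genes higher in the excitatory libraries. Without quantile normalization these were 95.86% and 56.08% for EGR1 at genes called toward the excitatory and the inhibitory libraries, beside 87.11% of all genes. For H3K27me3 they were 10.93% and 52.17%, beside 28.66% of all genes. For H3K4me3 the share was 92.33% at genes called toward the excitatory libraries, beside 54.69% of all genes. Leaving out a library gave 92.09% to 95.2% and 11.76% to 15.69% for H3K27ac and 82.25% to 90.41% for H3K4me3.

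Signs turned within 2 kb of the start at Nrp1 (-41.45), Grm7 (-40.57), Efna5 (-40.37), Meis2 (-39.97), Kcnh5 (-28.38), Rasgrf2 (-26.58), Htr2a (-24.39), Kcnc2 (-23.75), Kcnq5 (-21.79), Cacng3 (-15.44), Pcp4 (-14.73), Gad1 (-13.79), Ociad2 (-13.55), Grik4 (-13.15), Gabra2 (-11.16), Hs3st4 (-8.906), Kcnh7 (-6.817), Gabra5 (-6.566), Pptc7 (4.716), Tlx3 (6.676) and Ell (12.77). They turned with equal numbers of peaks at Atp1b1 (-11.94), Slc17a7 (-1.302) and Ell (0.1239), for the gene window Ell with a library left out (-1.418 to 1.223), and without flanks at Npvf (1.951). Medians within 2 kb of the start were -14.7 (deep-layer), -12.5 (glutamate receptor), -11.6 (excitatory neuron), -9.07 (hippocampal), -5.12 (striatal), -3.85 (upper-layer) and -2.24 (potassium channel). The median of all genes was 1.85 without quantile normalization and 0.106 with equal numbers of peaks, and that of inhibitory neuron markers 2.14 without quantile normalization. Over the named genes and all their alternatives, 223 values kept direction and side of the threshold, 539 lost the threshold and 26 turned. The causes were not tested.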
